A study of Homo sapiens with 4 samples.

Results

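The lysosomal module held 39 genes of the 28729 in the table. They were chosen by name from a list of lysosomal genes and matched to the table by Ensembl identifier and gene symbol. By role, the list had 5 subunits of the membrane sector (V0) and 8 of the cytosolic sector (V1) of the vacuolar ATPase, 7 cathepsins, 9 glycosidases, 4 genes of lipid handling, 4 membrane proteins, and the regulator TFEB with the channel MCOLN1. Every one of the 39 was in the table. Of these, 35 had a mean of at least 1 FPKM (fragments of a gene divided by its exon length and by the size of the library) and were tested, and the other 4, ATP6V0C, CTSC, CTSH and HEXA, are given by their levels.

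Lysosomes are the acid compartments in which proteins, glycans and lipids are broken down. The vacuolar ATPase pumps protons into them at the cost of ATP, and the acid lumen keeps the cathepsins, glycosidases and lipases active. TFEB and its relatives switch on many of these genes through a short palindromic promoter element, the CLEAR element. In cancer cells lysosomes also take part in nutrient supply, and cathepsins can be secreted.

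The study asked what SKA3, a subunit of a complex that holds kinetochores to spindle microtubules, does in laryngeal squamous cell carcinoma (LSCC). Cells of TU-177, an established human LSCC line, received a lentivirus with an shRNA against SKA3 (SKA3-KD) or a negative control virus (NC), and both groups were selected with puromycin before RNA was taken. Each group had 2 libraries. The labels give neither the number of shRNA sequences nor the length of the selection, and the methods of the study also describe siRNA and genome-edited SKA3 knockdown cells in other experiments. SKA3 itself measured 9.40 and 9.64 FPKM in NC and 3.77 and 4.12 FPKM in SKA3-KD. The SKA3-KD mean fell by 58.6% (log2 fold change of FPKM + 1, -1.09, SE 0.07, limma adjusted p = 0.00806), as the labels state.

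Library sizes, read from the steps of the FPKM values, were 11966130 and 9015056 in NC and 10177854 and 11793604 in SKA3-KD. The labels do not say whether replicates came from separate cultures, so p-values measure the spread between these libraries, which may be technical. In bulk RNA, fewer cells of a type and less RNA per cell cannot be told apart. The squamous label was checked against 8 markers, of which 5 were under 1 FPKM. KRT5, KRT14 and KRT6A were at 0 or at most 4 reads in each library, TP63 was between 0.348 and 0.580 FPKM, and CDH3 was at most 0.517 FPKM. Of the 3 markers above the filter, KRT17 had 45.6 and 49.1 FPKM in NC against 29.4 and 35.7 FPKM in SKA3-KD (log2 difference -0.53, limma adjusted p = 0.0396). ITGA6 had means of 11.8 ± 0.471 against 13.2 ± 0.308 FPKM (SD, n = 2, log2 difference 0.15, limma adjusted p = 0.191), without overlap, and EPCAM had 2.85 and 2.95 against 2.89 and 2.73 FPKM (-0.04). Of 4 macrophage and 2 endothelial markers in the table, none reached 1 FPKM. Among 6 fibroblast markers the summed level was 15.4 and 15.8 FPKM in NC and 8.86 and 9.56 FPKM in SKA3-KD. Most of that gap was DCN, which fell from 8.40 and 8.36 to 2.48 and 2.35 FPKM (log2 difference -1.46, limma adjusted p = 0.00650). COL1A1 was lower without passing the threshold (-0.32, limma adjusted p = 0.140), and COL3A1, under 1 FPKM, was lower in both SKA3-KD libraries. PDGFRB went the other way, at 2.88 and 2.46 FPKM in NC and 3.19 and 4.13 FPKM in SKA3-KD (log2 difference 0.34, limma adjusted p = 0.165). COL1A2 was at 0 in 3 of 4 libraries. Their part in the results below was not tested.

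Promoter sequence is shown first for the fallen members CTSD, CD63, LIPA and NPC2, as the 100 bases before the annotated start, read 5′ to 3′ on the strand of the gene. They come from the RefSeq promoter table (GRCh38.p14), which matched 30 of the 39 members. All 4 genes lie on the minus strand, CTSD at chr11:1763928-1764027, CD63 at chr12:55729010-55729109, LIPA at chr10:89414680-89414779 and NPC2 at chr14:74493513-74493612. Capitals mark the E-box CACGTG, the centre of the CLEAR element. It stands once in the CTSD stretch, centred 44 bases before the start, and not in the other stretches, while CD63 has one farther out, at 177 bases before the start.
CTSD: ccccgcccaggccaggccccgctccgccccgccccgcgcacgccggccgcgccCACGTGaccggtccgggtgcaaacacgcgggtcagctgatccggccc
CD63: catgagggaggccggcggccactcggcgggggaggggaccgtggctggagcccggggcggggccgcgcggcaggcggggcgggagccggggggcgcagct
LIPA: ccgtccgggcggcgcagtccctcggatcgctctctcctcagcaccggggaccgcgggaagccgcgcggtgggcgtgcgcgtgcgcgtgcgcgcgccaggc
NPC2: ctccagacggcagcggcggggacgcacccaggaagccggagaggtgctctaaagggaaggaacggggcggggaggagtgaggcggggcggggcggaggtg

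Members with the CLEAR core TCACGTGA are shown as 30 bases around it. The full element, the core with a G before and a C after it, was in ATP6V1G1 (chr9:114587699-114587728, plus strand), GAA (chr17:80101493-80101522 and chr17:80101538-80101567, plus strand) and MCOLN1 (chr19:7522571-7522600 and chr19:7522598-7522627, plus strand, the full element in the nearer site). The core alone was in ATP6V0D1 (chr16:67481199-67481228, minus strand), CTSA (chr20:45891298-45891327, plus strand) and LAMP1 (chr13:113297199-113297228, plus strand). A second core of LAMP1, centred 2 bases past the start, is not shown. Capitals mark the E-box again, and the first letter of the CTSA window is the last base of a further E-box.
ATP6V1G1: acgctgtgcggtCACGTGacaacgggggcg
GAA, site farther from the start: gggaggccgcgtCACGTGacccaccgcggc
GAA, site nearer the start: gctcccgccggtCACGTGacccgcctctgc
MCOLN1, site farther from the start: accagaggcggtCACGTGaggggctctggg
MCOLN1, site nearer the start: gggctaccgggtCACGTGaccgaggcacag
ATP6V0D1: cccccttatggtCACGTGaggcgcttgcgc
CTSA: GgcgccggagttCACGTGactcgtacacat
LAMP1: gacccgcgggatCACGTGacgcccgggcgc

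The 3 patterns are nested, each reads the same on both strands, and they were searched from 250 bases before to 50 bases after the start. The full element was in 10.0% of the members' promoters (3 of 30), in 0.871% of the promoters of genes tested (75 of 8608) and in 0.381% of all promoters (104 of 27305). The core was in 6 of 30 members, against 2.03% of genes tested and 1.04% of all promoters. The E-box was in 33.3% of members (10 of 30), 10.4% of genes tested and 7.43% of all promoters. Only exact matches were counted. The E-box of CTSD, with a C in place of the first T of the core, therefore did not count as a core. A match is a run of letters and not a measured binding site.

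The levels of the 39 members spread widely. CTSZ, a carboxypeptidase, was the highest at 243 and 256 FPKM in NC. PSAP, the precursor of the saposins that help degrade sphingolipids, followed at 204 and 218 FPKM, and CD63, a tetraspanin of late endosomes, was at 140 and 134 FPKM. These were the 3 members above 100 FPKM, 20 lay between 10 and 100 FPKM, 12 between 1 and 10 FPKM and 4 below 1 FPKM. In the same libraries the summed level of all members was 1326 and 1329 FPKM, and in SKA3-KD it was 1237 and 1243 FPKM, so the groups did not overlap. Each of the 3 highest members, which weigh most in this sum, was lower in both SKA3-KD libraries. The means of CTSZ, PSAP and CD63 were 250, 211 and 137 FPKM in NC and 227, 187 and 112 FPKM in SKA3-KD. Of them only CD63 had an adjusted p under 0.05 by limma.

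**Figure D1:**
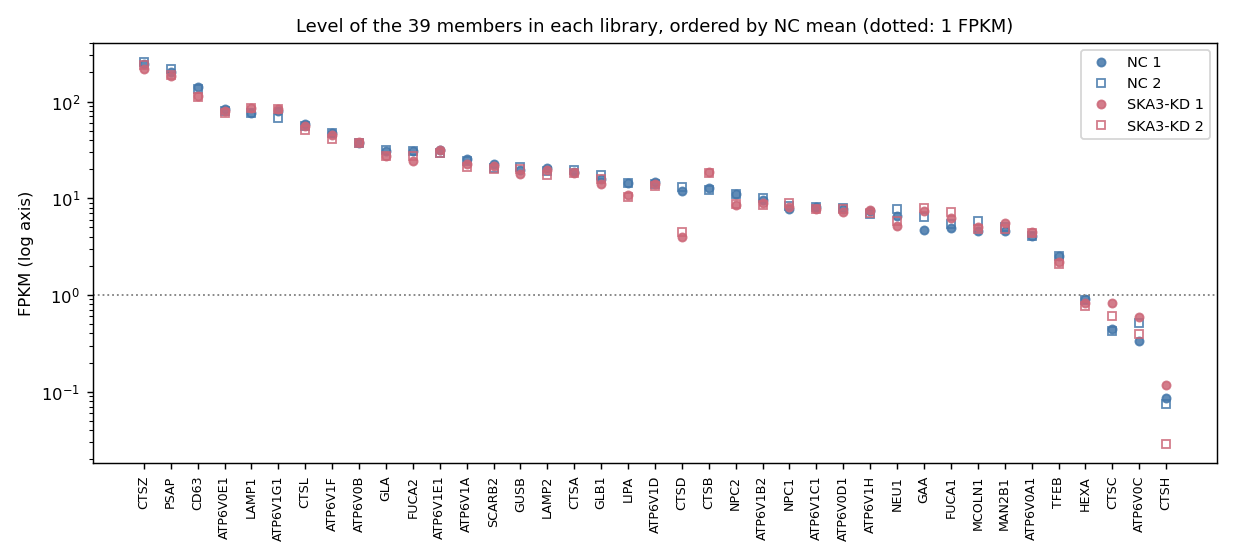
FPKM of each of the 39 members in the 4 libraries on a log axis, ordered by the NC mean, with filled circles for replicate 1, open squares for replicate 2, blue for NC and red for SKA3-KD. The levels of most members lie close together in the 4 libraries, CTSD stands apart downwards in both SKA3-KD libraries, and HEXA, CTSC, ATP6V0C and CTSH lie under the dotted line at 1 FPKM.

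Between SKA3-KD and NC, 4 of the 35 members tested fell (11.4%) and 1 rose (2.86%), by limma on log2(FPKM + 1) with Benjamini-Hochberg adjustment over all 12645 genes tested at a threshold of 0.05. Over all genes tested, 772 fell (6.11%) and 779 rose (6.16%). At an unadjusted p under 0.05, 9 members were lower and 4 higher, against 15.1% of all genes tested lower and 16.2% higher. The fallen members were CTSD, LIPA, NPC2 and CD63, and the risen one was CTSB. The median log2 fold change of the members was -0.08, with 25 negative and 10 positive, against a median of 0.01 for all genes tested. Set against the NC mean, SKA3-KD 1 alone had a member median of -0.06 and SKA3-KD 2 alone had -0.08, and NC 2 less NC 1 had 0.00. In 23 of the 35 members (65.7%) the groups did not overlap, which was the case for 61.6% of all genes tested. Without the filter on low levels only CTSD was called, against 0.306% of genes lower and 0.181% higher, and without the mean-variance trend only CTSD and CTSB were, against 3.01% lower and 2.47% higher. Of the 5 calls, those of CTSB, LIPA, NPC2 and CD63 were lost whenever any single library was left out. The call of CTSD was lost without NC 1 (adjusted p = 0.0660) or NC 2 (adjusted p = 0.0601), and held without either SKA3-KD library.

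**Figure D2:**
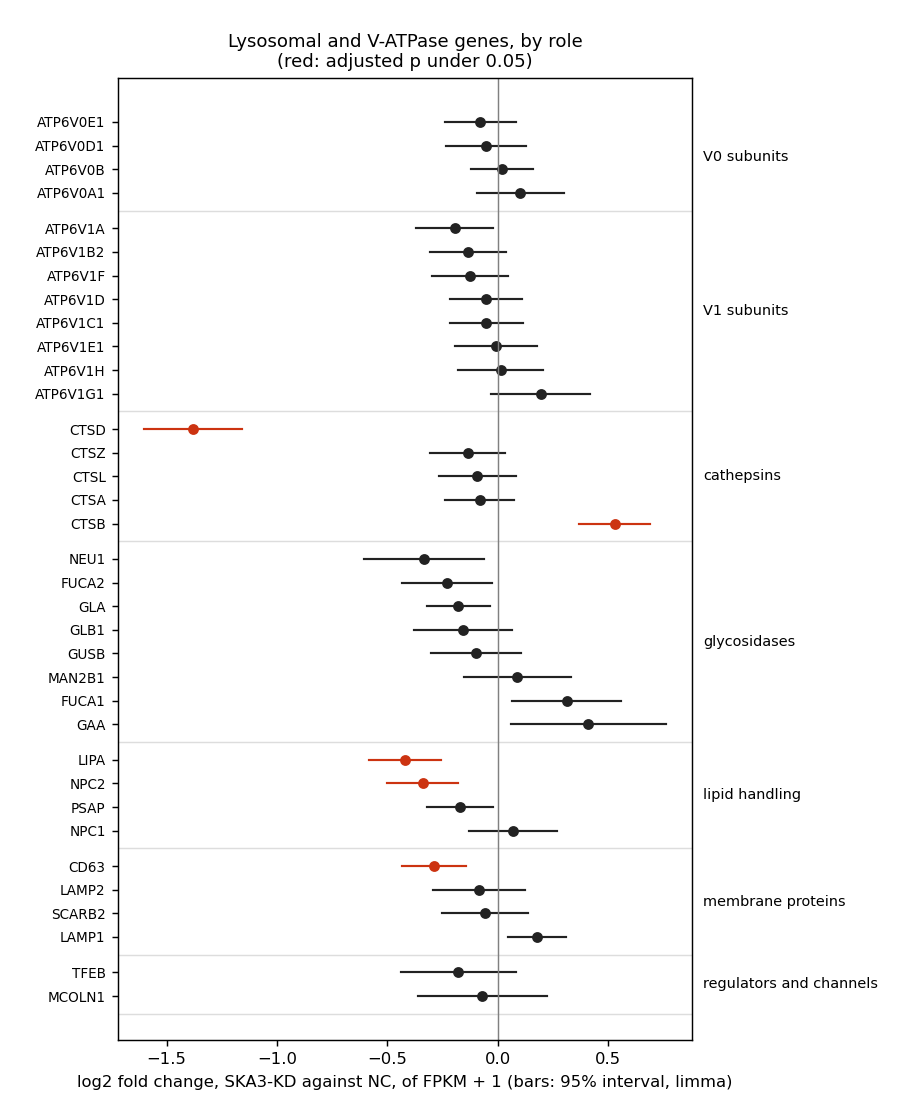
Log2 fold change of FPKM + 1 in SKA3-KD against NC for the 35 members tested, grouped by role, with the limma 95% interval as bars and the members past an adjusted p of 0.05 in red. CTSD lies far to the left at -1.38, CTSB to the right at 0.53, LIPA, NPC2 and CD63 between -0.42 and -0.29, and the 12 vacuolar ATPase subunits within 0.20 of 0.

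Among the members tested, cathepsins held the largest difference in each direction. CTSD encodes cathepsin D, the main aspartic protease of lysosomes, and measured 11.9 and 13.1 FPKM in NC and 3.96 and 4.44 FPKM in SKA3-KD. The lowest NC library was therefore far above the highest SKA3-KD library, and the gaps within each group were small beside the gap between them. The means were 12.5 ± 0.851 FPKM in NC and 4.20 ± 0.336 FPKM in SKA3-KD (SD, n = 2), a 2.98-fold lower level. On the log2(FPKM + 1) scale, which understates changes of low genes, the difference was -1.38 (SE 0.09, 95% interval -1.60 to -1.16, limma adjusted p = 0.00709). By size it was 31st among the 772 fallen genes. Behind these levels stood 428 and 355 recovered reads for NC against 121 and 157 for SKA3-KD. In GENCODE 29, 52.7% of the exon bases of CTSD are shared with other annotated genes, 41.7% on the same strand and 15.8% on the opposite strand, and it is not stated whether the counting used strand. The overlapping gene AC068580.3 was at 0.0415 to 0.0550 FPKM, or 1 read, in each library. No level is given here for the other overlapping gene, AC068580.4. How the overlap bears on the level of CTSD was not tested.

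CTSB, cathepsin B, a cysteine protease that is often abundant in tumours, went the other way. It measured 12.8 and 12.2 FPKM in NC and 18.8 and 18.3 FPKM in SKA3-KD. Both SKA3-KD libraries were above both NC libraries, from means of 12.5 ± 0.399 FPKM to 18.5 ± 0.362 FPKM (SD, n = 2). The mean was 48.0% higher, with a log2 difference of 0.53 (SE 0.06, 95% interval 0.37 to 0.69, limma adjusted p = 0.0152). It rested on 1140 and 821 reads for NC against 1423 and 1604 for SKA3-KD, and no other gene of GENCODE 29 overlaps its exons. Without the filter on low levels its adjusted p was 0.0542.

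The ratio of CTSB to CTSD within a library does not depend on library size. It was 1.07 and 0.932 in NC and 4.74 and 4.12 in SKA3-KD, so the pair stood near parity in NC and well apart in SKA3-KD. This ratio and the 3 that follow were formed after the values were seen and were not tested.

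The other cathepsins tested were CTSZ, CTSL and CTSA. CTSL, a cysteine endopeptidase, measured 58.3 and 56.2 FPKM in NC and 56.1 and 51.3 FPKM in SKA3-KD, with a log2 difference of -0.09 (limma adjusted p = 0.410). CTSZ had 218 and 237 FPKM in SKA3-KD, just below its NC values, with a difference of -0.14. CTSA, the protective protein that holds NEU1 and GLB1 in one complex, had 18.8 and 19.8 FPKM in NC and 18.1 and 18.2 FPKM in SKA3-KD, and its difference was -0.08. In these 3 genes the groups did not overlap, which was also the case for 61.6% of all genes tested. The gap between the groups was smaller than the spread within a group. CTSC, a dipeptidyl peptidase below the filter, measured 0.446 and 0.427 FPKM in NC and 0.826 and 0.601 FPKM in SKA3-KD, from 61 and 44 against 96 and 81 reads. CTSH, an aminopeptidase, had 6 and 4 reads for NC against 7 and 2 for SKA3-KD, where no difference could be detected at this depth.

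**Figure D3:**
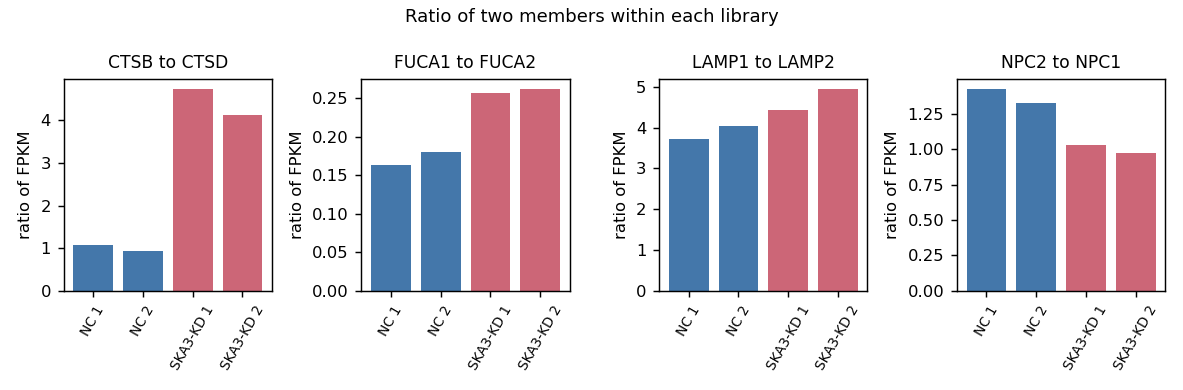
Ratio of the FPKM values of a pair of members within each of the 4 libraries, blue for NC and red for SKA3-KD, on linear axes from 0. CTSB to CTSD goes from about 1 in NC to over 4 in SKA3-KD, FUCA1 to FUCA2 and LAMP1 to LAMP2 are higher in both SKA3-KD libraries, and NPC2 to NPC1 is lower in both.

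Of 4 genes of lipid handling, 2 fell, against 6.11% of all genes tested, and both calls were lost with any library left out. LIPA, the acid lipase that frees cholesterol and fatty acids from lipoprotein lipids, measured 14.3 and 14.4 FPKM in NC and 10.7 and 10.2 FPKM in SKA3-KD. The NC libraries were nearly equal and both SKA3-KD libraries lay below them, 27.0% lower in the mean. The log2 difference was -0.42 (SE 0.06, 95% interval -0.58 to -0.26, limma adjusted p = 0.0237). NPC2, the soluble carrier that hands cholesterol to NPC1 in the lysosomal membrane, measured 11.1 and 11.1 FPKM in NC and 8.43 and 8.67 FPKM in SKA3-KD. Both SKA3-KD values lay below both NC values, and the log2 difference was -0.34 (SE 0.06, 95% interval -0.50 to -0.18, limma adjusted p = 0.0350).

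NPC1, the membrane partner of NPC2, did not pass the test. It measured 7.75 and 8.38 FPKM in NC and 8.17 and 8.87 FPKM in SKA3-KD, so the groups overlapped, and its difference was 0.07 (95% interval -0.13 to 0.27). The ratio of NPC2 to NPC1 was 1.43 and 1.32 in NC and 1.03 and 0.977 in SKA3-KD. PSAP measured 185 and 190 FPKM in SKA3-KD, below its NC values, with a difference of -0.17 (limma adjusted p = 0.129). The calls of LIPA and NPC2 were also lost without the filter on low levels (adjusted p = 0.0647 and 0.0793) and without the mean-variance trend (adjusted p = 0.0517 and 0.0634).

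Among the membrane proteins, CD63 fell, from 140 and 134 FPKM in NC to 114 and 110 FPKM in SKA3-KD. Both SKA3-KD libraries were below both NC libraries, by 18.3% in the mean. The log2 difference was -0.29 (SE 0.06, 95% interval -0.43 to -0.14, limma adjusted p = 0.0388), which placed it near the small end of the fallen genes, 746th of 772. Its call was lost without the filter (adjusted p = 0.0991) and without the trend (adjusted p = 0.0895).

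LAMP1, one of the most abundant glycoproteins of the lysosomal membrane, measured 75.8 and 76.9 FPKM in NC and 86.7 and 86.6 FPKM in SKA3-KD. Replicates were close in both groups and the groups did not overlap, but the difference of 0.18 (95% interval 0.05 to 0.31) did not pass the threshold (limma adjusted p = 0.0845). LAMP2, its relative, needed for autophagosomes to fuse with lysosomes, had 20.4 and 19.0 FPKM in NC and 19.6 and 17.5 FPKM in SKA3-KD, with overlap. The ratio of LAMP1 to LAMP2 was 3.71 and 4.05 in NC and 4.43 and 4.95 in SKA3-KD. SCARB2, the receptor that carries glucocerebrosidase to lysosomes, had 22.7 and 20.7 FPKM in NC and a difference of -0.06, also with overlap.

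**Figure D4:**
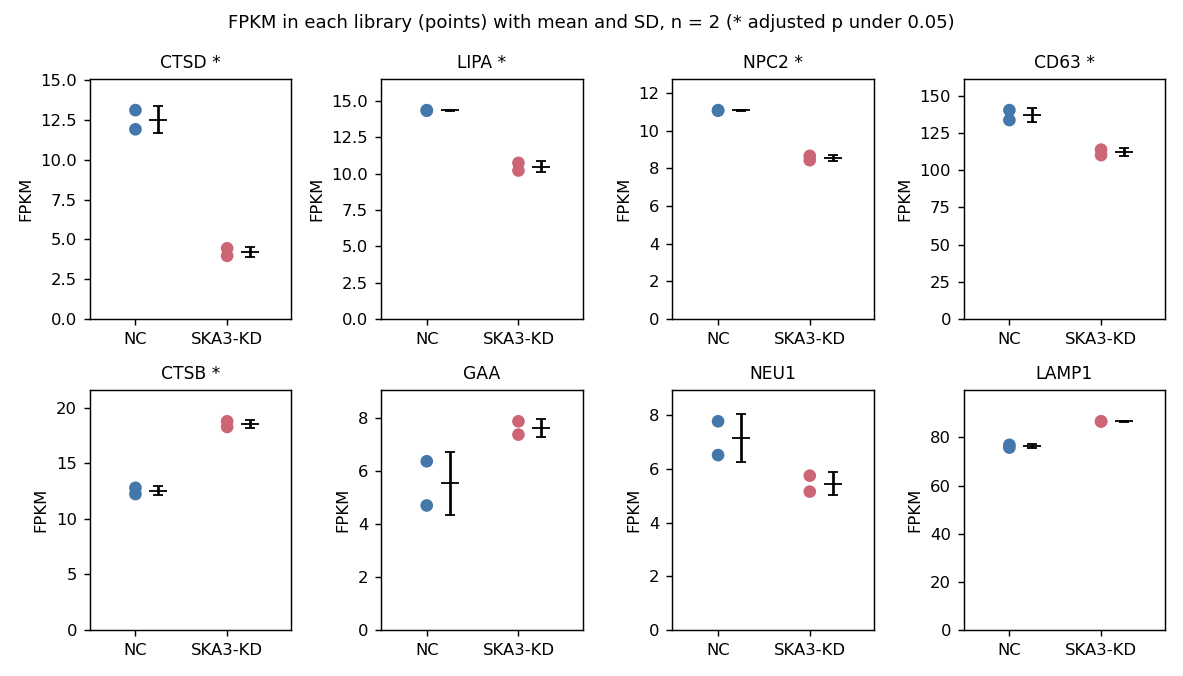
FPKM in each library (points) with the mean and SD beside them (n = 2) for 8 members on linear axes from 0, blue for NC and red for SKA3-KD, with an asterisk where the adjusted p was under 0.05. CTSD, LIPA, NPC2 and CD63 are lower and CTSB is higher in both SKA3-KD libraries, and in GAA and NEU1 the NC libraries lie farther apart than the SKA3-KD libraries do.

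Of the 8 glycosidases tested none passed the threshold by limma, while 3 were lower and 2 higher at an unadjusted p under 0.05, against 15.1% and 16.2% of all genes tested. NEU1, the lysosomal sialidase, measured 6.52 and 7.78 FPKM in NC and 5.16 and 5.75 FPKM in SKA3-KD, with a difference of -0.33 (95% interval -0.60 to -0.06, limma adjusted p = 0.107). FUCA2, a fucosidase that is largely secreted, measured 30.6 and 30.4 FPKM in NC and 24.2 and 27.6 FPKM in SKA3-KD, a difference of -0.23 (limma adjusted p = 0.127). GLA, alpha-galactosidase A, measured 31.0 and 31.2 FPKM in NC and 27.6 and 27.1 FPKM in SKA3-KD, a difference of -0.18 (limma adjusted p = 0.104). For all 3 the SKA3-KD values lay under the NC values. In either direction, the groups did not overlap in 6 of the 8 glycosidases tested (75%), against 61.6% of all genes tested.

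GAA, the acid glucosidase that breaks down glycogen, measured 4.70 and 6.37 FPKM in NC and 7.37 and 7.88 FPKM in SKA3-KD. The SKA3-KD libraries were both above, but the NC libraries differed from each other by 0.37 on the log2 scale, nearly as much as the group difference of 0.41 (limma adjusted p = 0.117). FUCA1, the lysosomal fucosidase, measured 4.98 and 5.47 FPKM in NC and 6.24 and 7.25 FPKM in SKA3-KD, a difference of 0.31 (limma adjusted p = 0.102). The ratio of FUCA1 to FUCA2 was 0.163 and 0.180 in NC and 0.258 and 0.262 in SKA3-KD. GLB1, the beta-galactosidase, had a difference of -0.16 without overlap, and GUSB, the beta-glucuronidase, and MAN2B1, an alpha-mannosidase, had -0.10 and 0.09 with overlap. HEXA, the alpha subunit of beta-hexosaminidase, stayed under the filter at 0.919 and 0.889 FPKM in NC and 0.818 and 0.776 FPKM in SKA3-KD.

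Of the vacuolar ATPase subunits, 12 of 13 were tested and none passed the threshold by limma, with 1 lower and none higher at an unadjusted p under 0.05 (15.1% and 16.2% of all genes tested). Their median difference was -0.05, with 8 negative and 4 positive, and in 6 of 12 the groups did not overlap, against 61.6% of all genes tested. The summed level of all 13 was 358 and 335 FPKM in NC and 351 and 337 FPKM in SKA3-KD, with overlap. The 95% intervals of the 12 subunits together ran from -0.37, the lower bound of ATP6V1A, to 0.42, the upper bound of ATP6V1G1.

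In the V1 sector, which hydrolyses ATP, the catalytic subunit ATP6V1A measured 25.7 and 24.2 FPKM in NC and 22.4 and 21.0 FPKM in SKA3-KD. Both SKA3-KD libraries were below NC, with a difference of -0.19 (95% interval -0.37 to -0.02, limma adjusted p = 0.131). ATP6V1B2, which shares the nucleotide sites with it, had 9.54 and 9.95 FPKM in NC and 9.00 and 8.57 FPKM in SKA3-KD, a difference of -0.13. ATP6V1G1, a subunit of the outer stalks, was the most abundant V1 subunit and measured 79.1 and 67.4 FPKM in NC and 84.3 and 83.2 FPKM in SKA3-KD, a difference of 0.20 (limma adjusted p = 0.205). Its NC libraries differed by more than the SKA3-KD libraries stood above the higher of them. The rotor subunits ATP6V1D and ATP6V1F had -0.05 and -0.12, the stalk subunit ATP6V1E1 had -0.01, and ATP6V1C1 and ATP6V1H, which join the stalks to the rest, had -0.05 and 0.01.

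In the V0 sector, which carries the protons, ATP6V0E1 was the most abundant subunit at 84.6 and 78.9 FPKM in NC and 78.9 and 75.9 FPKM in SKA3-KD. ATP6V0A1, the large membrane subunit, measured 4.05 and 4.06 FPKM in NC and 4.51 and 4.34 FPKM in SKA3-KD, a difference of 0.10 without overlap (limma adjusted p = 0.412). ATP6V0B, part of the proton-carrying ring, and ATP6V0D1, which couples the sectors, had 0.02 and -0.05, with overlapping groups. ATP6V0C, the main ring subunit, was listed at only 6 and 7 reads for NC against 9 and 7 for SKA3-KD, although the other subunits of the same complex were well measured. In GENCODE 29, 72.1% of its exon bases are shared with other annotated genes on the same strand and 4 pseudogenes carry its name, so its level in this table is uncertain. Pseudogenes also exist for GUSB (11), CTSL (5), ATP6V1G1 (5), ATP6V0E1 (4), ATP6V1E1 and FUCA1, and over 10% of the exon bases of CTSA, ATP6V1F, MAN2B1, FUCA2, HEXA and GLB1 lie under other genes.

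TFEB, the transcription factor that drives the CLEAR network, was the lowest member above the filter. It measured 2.53 and 2.53 FPKM in NC and 2.17 and 2.07 FPKM in SKA3-KD, and the groups did not overlap, but the difference of -0.18 (95% interval -0.44 to 0.08) did not pass the threshold (limma adjusted p = 0.296). MCOLN1, the calcium channel of the lysosomal membrane, had 4.61 and 5.80 FPKM in NC and 4.99 and 4.78 FPKM in SKA3-KD, inside the NC range. Neither passed at an unadjusted p under 0.05. These are RNA levels, and the place of TFEB in the cell, by which it is mainly controlled, was not measured here.

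The members with the CLEAR core in the sequences shown above did not fall together. Their 6 log2 differences had a median of 0.06, with 3 negative, and the 21 tested members with a promoter entry but no core had a median of -0.12, with 16 negative. Of the 6, GAA, LAMP1 and ATP6V1G1 had positive differences. ATP6V0D1, CTSA and MCOLN1 had negative ones, of -0.05, -0.08 and -0.07, and none of the 6 passed the threshold by limma. None of CTSD, CD63, LIPA and NPC2 had an exact core, and CTSB, the risen member, had no promoter entry. These medians come from few genes that share the same 4 libraries and were not tested.

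The count-based fit gave more calls. With limma voom on the recovered reads, 8 members fell (22.9%) and 2 rose (5.71%), against 13.5% and 13.1% of the 12241 genes it tested. The fallen members then also held FUCA2 (log2 difference -0.25, adjusted p = 0.0316), NEU1 (-0.38, adjusted p = 0.0182), ATP6V1A (-0.22, adjusted p = 0.0350) and PSAP (-0.18, adjusted p = 0.0391). GAA joined CTSB among the risen members, at 0.49 (adjusted p = 0.00508). CTSD had -1.58 in this fit, with an adjusted p of 2.20e-08.

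Further genes of the pathway were listed in 7 groups, 124 of them in the table and 102 tested. Of these 5 fell and 5 rose (4.90% each, against 6.11% and 6.16% of all genes tested), with a median of 0.01. Among 27 other hydrolases 3 fell (11.1%) and 1 rose (3.7%), against the same shares of all genes tested. GM2A, the activator that presents ganglioside GM2 to the hexosaminidase of HEXA, measured 7.91 and 7.80 FPKM in NC and 3.77 and 3.29 FPKM in SKA3-KD, with a difference of -0.97 (limma adjusted p = 0.0103), the nearest in size to CTSD. ARSB, a sulfatase of glycosaminoglycans, had -0.49, HGSNAT, which acetylates heparan sulfate for its breakdown, had -0.33, and ACP2, the lysosomal acid phosphatase, had 0.41.

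Among 13 genes of sorting to lysosomes none fell and 2 rose (15.4%), against 6.11% and 6.16% of all genes tested. SORT1, sortilin, measured 6.29 and 5.77 FPKM in NC and 9.20 and 9.59 FPKM in SKA3-KD, with a difference of 0.56 (limma adjusted p = 0.0189). IGF2R, the large mannose 6-phosphate receptor that delivers CTSD and other hydrolases, measured 27.6 and 29.8 FPKM in NC and 37.0 and 35.0 FPKM in SKA3-KD, with a difference of 0.32 (limma adjusted p = 0.0470). Among 16 regulators 1 rose and 1 fell (6.25% each), near the shares of all genes tested. MTOR, the kinase that keeps TFEB in the cytosol, rose from 9.70 and 10.5 FPKM to 15.7 and 16.4 FPKM (0.62, limma adjusted p = 0.0146). RRAGA, a GTPase that brings MTOR to the lysosome, fell from 38.8 and 39.2 FPKM to 28.8 and 30.9 FPKM (-0.38, limma adjusted p = 0.0282). In each of these genes the groups did not overlap, which was the case for 61.6% of all genes tested.

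Of 15 other membrane proteins and transporters 1 rose (6.67%, against 6.16% of all genes tested), the channel TPCN1 at 0.30 (limma adjusted p = 0.0459). Of 17 autophagy genes 1 fell (5.88%, against 6.11%), UVRAG at -0.54 (limma adjusted p = 0.0324), which acts in the maturation of autophagosomes. None of 7 other isoforms and accessory proteins of the vacuolar ATPase and none of 7 other proteases passed by limma. In each of those groups 1 gene was lower and none higher at an unadjusted p under 0.05, and 1 was called lower by voom, against 15.1% and 13.5% of all genes in these fits.

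**Figure D5:**
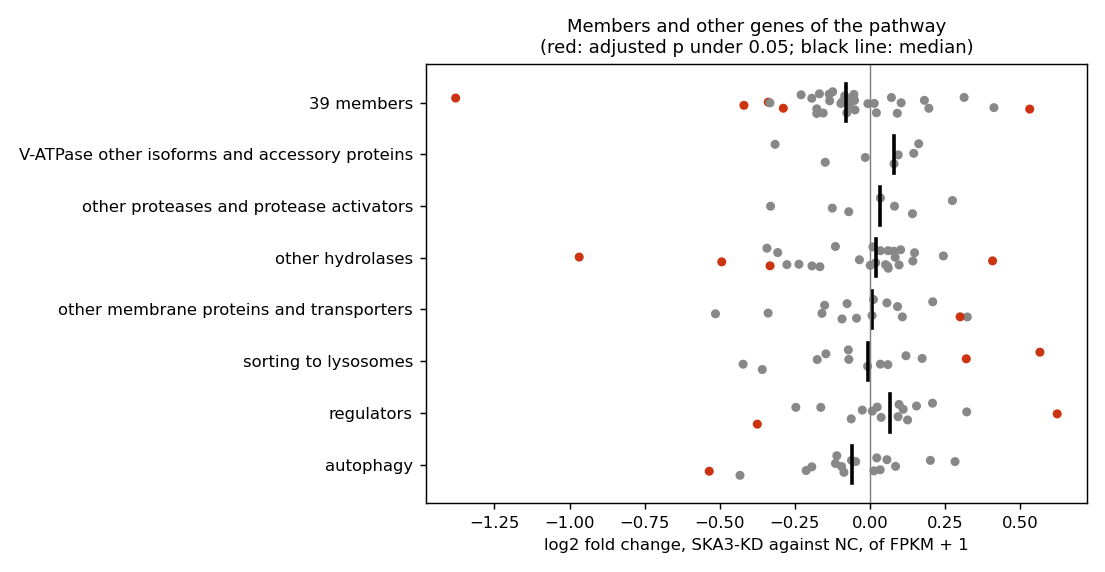
Log2 fold change of FPKM + 1 in SKA3-KD against NC for the members and for 7 further groups of lysosomal and autophagy genes, 1 point per gene tested (vertical scatter only separates points), red where the adjusted p was under 0.05, with the median of each group as a black line. The member median lies at -0.08, that of the other groups lies between -0.06 and 0.08, and CTSD and GM2A lie farthest to the left.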

How the data were processed

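RNA of TU-177 cells was sequenced in 2 NC and 2 SKA3-KD libraries, grouped by their titles. The authors deposited FPKM values per gene, already divided by gene length and library size. The submitters' processing notes list Bowtie2 2.2.8, HISAT2, StringTie 1.3.1, Cuffdiff 2.1.1 and the build hg19, without their roles. The annotation and the use of strand are not given in the sources used here, and the methods name no test for these data. Of 28729 genes, 26504 were above 0 in at least 1 library, and 27199 Ensembl identifiers matched a GENCODE 29 symbol. This release is on another build than hg19, so it served for names, exon lengths and exon overlaps. The printed promoter coordinates come from the RefSeq promoter table (GRCh38.p14).

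Values were tested as log2(FPKM + 1) for genes with a mean of at least 1 FPKM, with limma 3.58.1 (lmFit, eBayes with a mean-variance trend) in R 4.3.3, without further scaling. P-values were adjusted by Benjamini-Hochberg over all genes tested. Low FPKM values move in steps of 1 read, from which whole reads (within 0.005 of a whole number) were derived, for 61.3% of genes tested through the GENCODE 29 exon length and for 35.5% through a searched length, and limma voom on them was an alternative. All 39 members had whole reads. For some members, among them CTSD, CTSB, CD63 and LIPA, they came through a searched length. That length was the smallest to give whole reads, so these reads are whole by construction and could be too low by a common factor. Replicates differed by more than sampling noise (chi-square per degree of freedom 3.78 in NC and 3.77 in SKA3-KD).

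Other alternatives used no filter, a mean of at least 5 FPKM, a pseudocount of 0.1, median-of-ratios scaling (factors 0.998 to 1.01), no trend, a replicate block and leaving out each library. The fits were also run on simulated reads with known changes to check the code, and no result here rests on that. Members past the threshold are named with every library's value, other members by role, and up to 4 genes past it per further list. Members and lists were chosen with earlier results of these data known. Python 3.11.15, numpy 2.4.6, pandas 2.3.3 and matplotlib 3.10.9 were used for the remaining steps.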

Additional observations from a re-analysis of the deposited data

How the results depend on the processing

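Under all 7 alternatives that used the 4 libraries, SKA3 and CTSD kept their direction and stayed past the threshold (adjusted p up to 0.0454 for both). Without the filter on low levels 81 genes fell and 48 rose, and of the members 1 fell and 0 rose by limma, with 9 lower and 4 higher at an unadjusted p under 0.05 (2335 and 2442 of all 26504 genes). Without the trend 381 genes fell and 312 rose, and 1 member fell and 1 rose. With voom on recovered reads 1648 genes fell and 1598 rose, and 8 members fell and 2 rose. With 1 library left out, where the lone library is assumed to vary like the other group, between 0 and 135 genes fell and between 0 and 46 rose, and 0 to 1 members fell and 0 to 0 rose by limma. The lone-library fits without NC 1 and NC 2 made no call, with 1486 and 1555 genes lower and 1638 and 1797 higher at an unadjusted p under 0.05, and without SKA3-KD 1 and SKA3-KD 2 they called 53 and 135 genes lower. SKA3 ranged from -1.14 to -1.04 and lost its call without NC 1 (adjusted p = 0.0660) or NC 2 (0.0601). The median log2 fold change of the members ranged from -0.0861 to -0.0604. The number of libraries is smaller in these fits by construction, and the cause of the other changes was not tested. No called member changed direction, while ATP6V1E1, ATP6V1H, SCARB2 and MCOLN1, whose differences were near 0, took either sign. The replicate block gave 965 genes lower and 1002 higher and called 4 members lower and 1 higher. Same-numbered libraries deviated together with r = 0.0973 over 12645 genes. That value does not settle whether they were handled together, and the labels do not say. Among the members under the filter, reads were fewest for CTSH, at 2 to 7 in a library. ATP6V0C had 6 to 9, and its level is also uncertain for the exon overlap given above.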
